A study of Mus musculus with 5 samples.

Results

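Sgk1 and 8 further genes of the glucocorticoid response were followed in epithelial tumour cells of the mouse prostate, each on all of its probe sets. The 9 genes are Sgk1, Sgk3, Tsc22d3, Per1, Fkbp5, Klf9, Zbtb16, Nr3c1 and Dusp1. They were chosen by an earlier look at the difference between the genotypes, in which Sgk1 was among the genes lower in nTKO cells, and by membership of the same pathway. Every probe set whose only gene symbol is one of the 9 was kept, which gave 29 of 45037 probe sets (9 of 18193 genes). Because the genotype difference chose the set, that difference is described here and not tested.

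The cells came from 5 C57BL/6 mice, 3 of the genotype nDKO and 2 of the genotype nTKO. Both genotypes, controls included, carry homozygous floxed alleles that include Smad4, and the labels name Probasin, whose promoter is active in prostate epithelium. The nTKO mice carry floxed Pygo2 in addition. Pygo2 encodes a chromatin-binding co-activator of Wnt signalling. The nDKO mice were 15.86, 10.71 and 10.71 weeks old, in the order nDKO 1 to nDKO 3, and the nTKO mice 31.43 (nTKO 1) and 16 weeks (nTKO 2), so age and genotype are partly confounded. Tumours were kept on ice while tumour cells were purified from the suspension with Epicam beads (so spelt). The labels name no steroid treatment. Total RNA was measured on Affymetrix expression arrays, 1 array a mouse, and all levels below are log2 signals, where a difference of 1 is a factor of 2. The number of mice is what limits the precision.

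Glucocorticoids are steroid hormones of the adrenal gland. They cross the cell membrane and bind the glucocorticoid receptor, the product of Nr3c1, which then moves to the nucleus and binds DNA at a palindromic glucocorticoid response element. The androgen receptor can bind much the same element, and in prostate epithelium several classical glucocorticoid-induced genes, among them Fkbp5, Tsc22d3, Sgk1 and Zbtb16, are also known to respond to androgen. Sgk1 and Sgk3 are serum- and glucocorticoid-regulated kinases of the AKT family, and Sgk1 is the classical glucocorticoid-induced one, while Sgk3 is known to respond to androgen in prostate cancer cells. Tsc22d3 encodes the leucine zipper protein GILZ, Per1 is a core repressor of the circadian clock, Fkbp5 a co-chaperone that holds the receptor in a state of low affinity, Klf9 and Zbtb16 (PLZF) are zinc-finger transcription factors, and Dusp1 is a phosphatase that switches off MAP kinases.

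The stretches before annotated starts of Sgk1, Tsc22d3 and Per1 are shown because these 3 genes had lower signals in both nTKO mice, and because the Sgk1 window is the only member window that holds the full response element. For Tsc22d3 and for Per1 the window shown is the only one of the gene that held a motif searched for. Each is the 250 bases before a start in RefSeq (GRCm38.p6), written 5′ to 3′ on the strand of the gene, with the motifs found in capitals. The windows lie at chr10:21993640-21993889 (Sgk1, plus strand), chrX:140600523-140600772 (Tsc22d3, minus strand) and chr11:69098699-69098948 (Per1, plus strand).
Sgk1: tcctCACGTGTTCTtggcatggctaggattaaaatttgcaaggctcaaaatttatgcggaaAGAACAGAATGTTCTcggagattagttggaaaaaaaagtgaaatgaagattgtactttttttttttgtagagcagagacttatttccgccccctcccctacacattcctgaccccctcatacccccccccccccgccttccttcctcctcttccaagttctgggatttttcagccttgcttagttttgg
Tsc22d3: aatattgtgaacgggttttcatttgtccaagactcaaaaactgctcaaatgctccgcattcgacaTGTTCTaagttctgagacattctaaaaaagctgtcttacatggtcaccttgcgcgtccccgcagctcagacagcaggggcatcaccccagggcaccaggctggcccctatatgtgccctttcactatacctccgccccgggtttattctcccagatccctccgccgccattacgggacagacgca
Per1: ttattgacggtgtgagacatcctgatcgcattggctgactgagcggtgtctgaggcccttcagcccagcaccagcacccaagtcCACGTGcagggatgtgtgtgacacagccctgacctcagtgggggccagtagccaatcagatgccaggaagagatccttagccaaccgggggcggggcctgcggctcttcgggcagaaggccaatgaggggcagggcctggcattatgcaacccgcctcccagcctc

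Of the 9 genes, 6 matched the promoter table with 14 windows in all (250 bases before and 50 after each start), of which Sgk1 had 6, Tsc22d3 had 3 and Per1 had 2. Both strands of each window were searched for the palindrome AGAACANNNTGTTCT. It occurred in 1 member window, that of Sgk1 printed above, as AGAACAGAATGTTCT at bases 62 to 76 counted from the 5′ end of the window, and in 3 of all 32851 windows (0.00913%). This match ends 175 bases before the start at which the window was drawn and 951 bases before the last of the 6 annotated Sgk1 starts, and 4 of the starts lie upstream of it, so it is inside the annotated span of the gene. The looser form GNACANNNTGTNC, which includes the palindrome, was in the same member window alone and in 0.475% of all windows.

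The hexamer AGAACA, 1 arm of the palindrome, was found in 4 member windows and in 19.0% of all windows. Those member windows are all of Sgk1 except the Tsc22d3 window printed above. In the Sgk1 window a further hexamer at bases 9 to 14 overlaps an E-box (CACGTG), the element bound by clock and other helix-loop-helix factors, at bases 5 to 10. The Tsc22d3 window holds 1 hexamer at bases 66 to 71, and the Per1 window an E-box at bases 85 to 90. E-boxes were in 4 member windows (those of Sgk1 and Per1 printed above, and those of Dusp1 and Fkbp5) and in 7.15% of all windows, and the cyclic AMP element TGACGTCA in 1, that of Dusp1, and in 1.79% of all. The Klf9 window held no match to any of the 5 motifs. A match is a description of the letters, and binding was not measured. Sgk3, Zbtb16 and Nr3c1 are named without a window.

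The targeted gene followed the labels. Pygo2 was at 8.65, 8.62 and 8.72 in nDKO cells and at 7.30 and 6.35 in nTKO cells. Smad4, floxed in both genotypes, read 9.63 to 10.37 throughout, and whether its probes lie in the deleted part is unknown. The epithelial markers Epcam (12.94 to 13.48) and Krt8 (12.96 to 13.55) were high on every array. The arrays nDKO 1 and nTKO 1, the oldest mouse of each genotype, stood apart from the other 3 on the first principal component (47.1% of the variance), and the suprabasal keratin Krt10 was at 13.03 and 13.04 on them against 6.71 to 6.93 on the others. With limma, 0 of 45037 probe sets (0.0%) had an adjusted p under 0.05 (smallest 0.799), and 1710 had an unadjusted p under 0.05. No member was therefore called, and no difference below is significant over the array.

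The kinase gene Sgk1 was the member that set the genotypes farthest apart, with less signal in nTKO cells. Its only probe set (1416041_at) was at 12.65, 13.10 and 13.04 in nDKO cells and at 11.45 and 11.86 in nTKO cells. The groups were separated by a gap of 0.79, wider than the range within either of them (0.45 in nDKO and 0.41 in nTKO cells). The log2 difference was -1.28 (SE 0.21), which leaves 41.3% of the nDKO signal. Among probe sets at large, 0.0622% were lower by 2-fold or more with an unadjusted p under 0.05, and Sgk1 was the 1 member among them, which is how it was chosen. Leaving out 1 mouse at a time gave -1.48 to -1.07. Adjusting for log2 age brought it to -0.82, and the mice closest in age, nDKO 1 (12.65) and nTKO 2 (11.86), differed by -0.79. Without nDKO 1 and nTKO 1 together it was -1.21. Fewer cells with the transcript and less transcript per cell cannot be told apart in such bulk RNA, here or below.

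Tsc22d3, whose product GILZ mediates part of the anti-inflammatory action of glucocorticoids, had 4 probe sets. In the brightest (1420772_a_at) the nDKO values were 9.31, 9.64 and 9.60 and the nTKO values 9.21 and 8.86, a log2 difference of -0.48 (SE 0.17). The groups do not overlap, but nTKO 1 lies only 0.1 below nDKO 1, and the difference was -0.31 without nTKO 2 and -0.76 without nDKO 1 and nTKO 1. A second probe set (1425281_a_at) separated the genotypes more widely, reading 8.21, 8.58 and 8.56 in the nDKO mice but 7.57 and 7.49 in the nTKO mice. Its log2 difference was -0.92 (SE 0.14), with -1.04 to -0.86 when 1 mouse was left out and -0.80 adjusted for log2 age. It left 52.9% of the nDKO signal, against 71.6% by the brightest probe set, so the probe sets of the gene disagree on the size. The third (1425557_x_at) was at 6.84, 6.96 and 6.93 against 6.65 and 6.77 (-0.20, and -0.08 adjusted for log2 age). The fourth (1444365_at) was below the median of every array, at 3.95 to 4.32, and carried the other sign (0.19). Where each probe set lies on the transcripts of the gene was not analysed here.

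Per1, the clock repressor that glucocorticoids also induce, had, of the brightest probe sets of these 3 genes, the smallest shift and the least spread between nDKO mice. Its single probe set (1449851_at) was at 7.71, 7.60 and 7.74 in nDKO cells and at 7.34 in both nTKO mice. Again no nTKO value reached an nDKO value, with a gap of 0.26 against a range of 0.14 in nDKO cells. The log2 difference of -0.34 (SE 0.07) lay between -0.39 and -0.32 with 1 mouse left out. Because the nTKO values were equal, leaving out either nTKO mouse could not move it. Adjusted for log2 age it was -0.36, between the mice closest in age -0.37 and -0.33 without nDKO 1 and nTKO 1, so unlike that of Sgk1 it changed little in these settings.

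**Figure D1:**
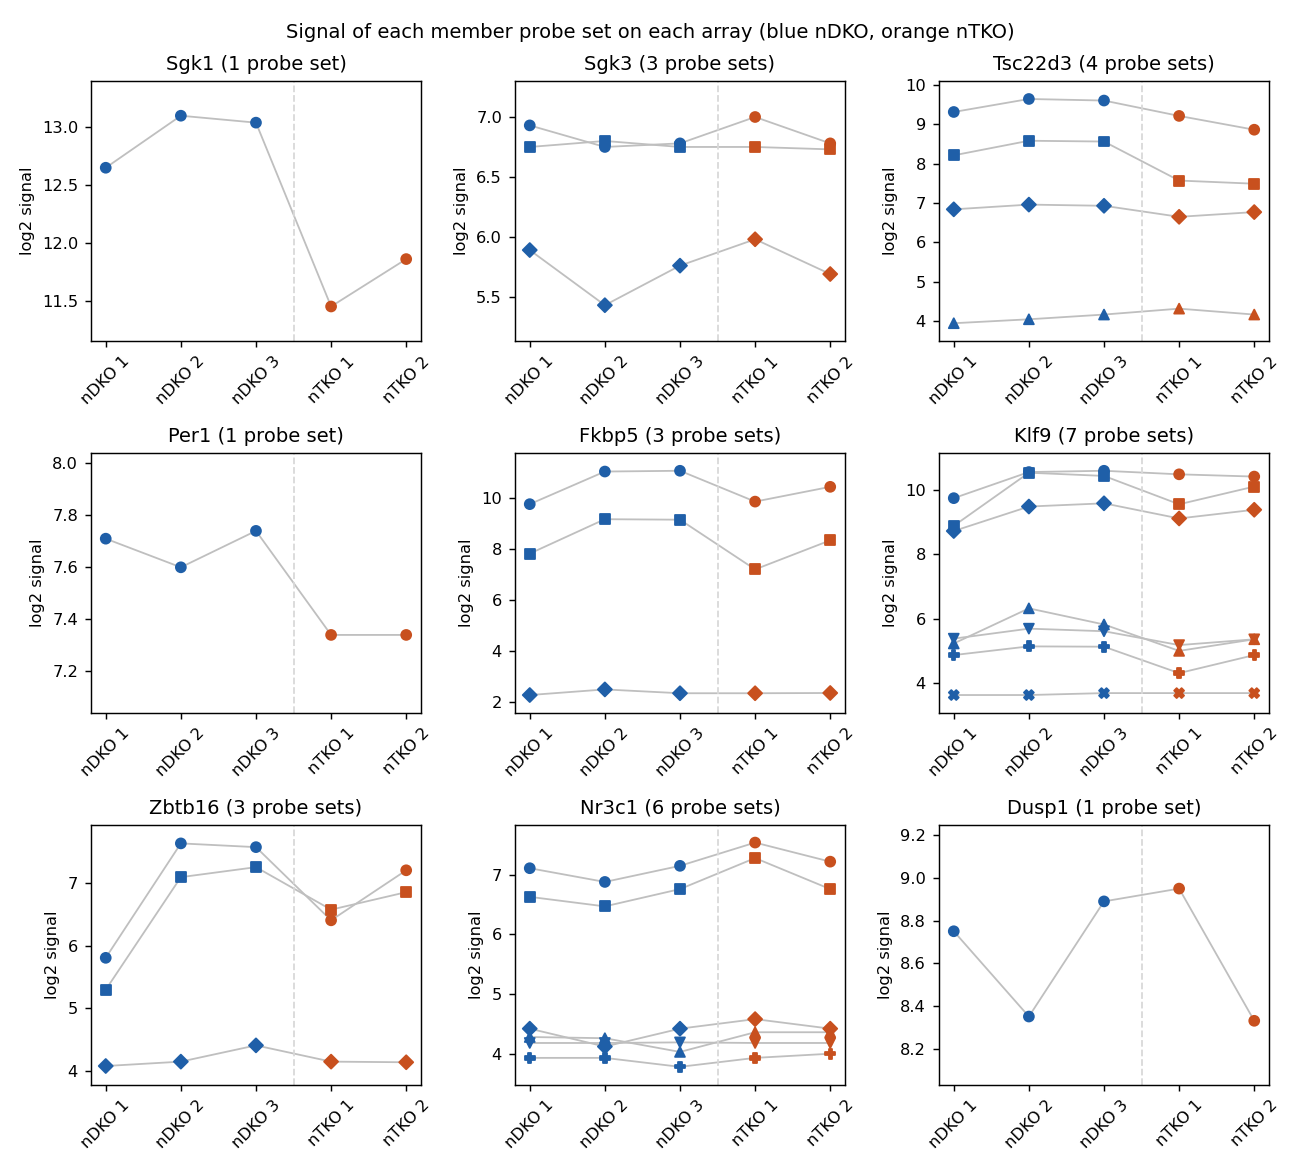
Log2 signal (vertical axis, with its own scale in each panel) of each of the 29 member probe sets on each array (horizontal axis), blue for the 3 nDKO and orange for the 2 nTKO mice; a marker shape is a probe set, and grey lines only join the points of one probe set. The nTKO points of Sgk1 (11.45 and 11.86) and Per1 (7.34 and 7.34) lie below all nDKO points, while Fkbp5 and Zbtb16 are low in nDKO 1 and nTKO 1.

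On their brightest probe sets, Fkbp5, Klf9 and Zbtb16 ranged more widely among the nDKO mice than the genotype means differed. Fkbp5, the co-chaperone often used as a readout of receptor activity, was at 9.76, 11.04 and 11.07 in nDKO cells and at 9.86 and 10.44 in nTKO cells on its brightest probe set (1416125_at). The low values are those of nDKO 1 and nTKO 1, and the groups overlap. On 1448231_at the gene was at 7.82, 9.17 and 9.15 against 7.20 and 8.34, with the same 2 arrays lowest. The genotype differences, -0.47 (SE 0.51) and -0.94 (SE 0.61), lay close to the spread of the nDKO mice (SD 0.75 and 0.77, n = 3). With 1 mouse left out they stayed negative, at -0.905 to -0.183 and at -1.513 to -0.373. Without nDKO 1 and nTKO 1 together they were -0.615 and -0.82. Adjusting for log2 age turned their sign (0.51 and 0.41), as did taking only the mice closest in age (0.68 and 0.52). That pair also differed in Krt10, at 13.03 in nDKO 1 and 6.90 in nTKO 2. The oldest mouse of each genotype was the one with high Krt10. For every gene here, the fit with log2 age therefore cannot tell age from that difference between arrays. In the pair, age was nearly equal (15.86 and 16 weeks), and genotype cannot be told from that difference. The last Fkbp5 probe set (1447736_at) was below the median of every array, at 2.27 to 2.49.

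Zbtb16 varied most within a genotype. It was at 5.81, 7.64 and 7.58 in nDKO cells and at 6.41 and 7.21 in nTKO cells on 1439163_at, and at 5.30, 7.10 and 7.26 against 6.58 and 6.86 on 1419874_x_at. In both probe sets nDKO 1 is lowest and nTKO 1 next, and the nDKO range of 1.83 and 1.96 exceeds the genotype differences of -0.20 and 0.17, which do not even share a sign. Adjusted for log2 age they became 1.16 and 1.25. The remaining probe set (1427638_at) was below every array median.

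Klf9 had 7 probe sets. On the brightest (1428288_at) it was at 9.74, 10.55 and 10.59 in nDKO cells and at 10.48 and 10.41 in nTKO cells, so that only nDKO 1 was low. On 1456341_a_at the values were 8.88, 10.53 and 10.43 against 9.55 and 10.10, and here nTKO 1 was low too. The log2 differences were 0.15 (SE 0.31) and -0.12 (SE 0.61), within the nDKO spread (SD 0.48 and 0.93, n = 3). A dimmer probe set (1422264_s_at) had groups that do not overlap, 5.38, 5.69 and 5.61 against 5.18 and 5.36, by a margin of 0.02. Over the 7 probe sets the differences ran from -0.61 to 0.15, with 5 lower and 2 higher. None of the 3 brightest separated the genotypes.

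Both nDKO 1 and nTKO 1 lay below the other 3 arrays in 7 of the 29 member probe sets, 2 of Fkbp5, 3 of Klf9 and 2 of Zbtb16. Over all probe sets the share was 9.77%. The squamous markers were high on those arrays, with a list median of 11.39 in nDKO 1 and 10.23 in nTKO 1 against 6.43, 6.08 and 5.46 in nDKO 2, nDKO 3 and nTKO 2. The basal keratin Krt5 was at 13.10 and 12.35 on them against 10.52 to 10.87. Krt14, Krt17 and Trp63 of the basal list were also higher on both than on the other 3 arrays. Itga6, Itgb4, Pdpn and Dst of that list were instead lowest in nTKO 1, at 10.43, 8.04, 6.90 and 6.58. Krt15 was at 13.29 in nTKO 1, below all nDKO mice, so the basal list had no common direction on that array. The enzyme Hsd11b2, which inactivates glucocorticoids, was lowest in nDKO 1 and nTKO 1, at 6.83 and 7.23 against 8.71, 8.23 and 7.50. The part of these markers, and of age, in the levels of Fkbp5, Klf9 and Zbtb16 was not tested.

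**Figure D2:**
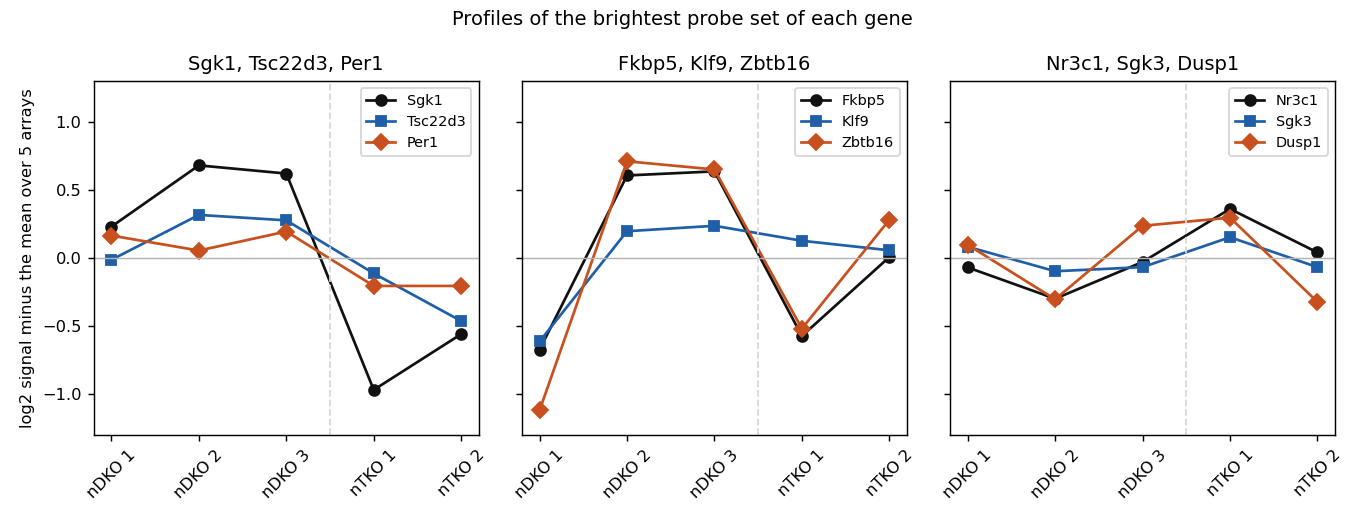
Log2 signal minus its mean over the 5 arrays (vertical axis) on each array (horizontal axis) for the brightest probe set of each gene, in 3 panels of 3 genes; lines only join the points of a gene. Sgk1, Tsc22d3 and Per1 lie lower in both nTKO mice, Fkbp5 and Zbtb16 in nDKO 1 and nTKO 1, and Klf9 in nDKO 1.

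Nr3c1, the receptor itself, had a higher signal in both nTKO mice on its brightest probe set. That probe set (1460303_at) was at 7.11, 6.88 and 7.15 in nDKO cells and at 7.54 and 7.22 in nTKO cells. The nTKO values lie above all nDKO values, though nTKO 2 by only 0.07, and the log2 difference was 0.33 (SE 0.14). Without nTKO 1 it was 0.17, adjusted for log2 age 0.09, and between the mice closest in age 0.11. The second probe set (1421867_at) was at 6.63, 6.47 and 6.76 against 7.28 and 6.76, so that nTKO 2 equalled nDKO 3. The other 4 probe sets of the gene were below the median of every array, between 3.78 and 4.58.

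Sgk3, the paralogous kinase, had overlapping signals in the genotypes. It was at 6.93, 6.75 and 6.78 in nDKO cells and at 7.00 and 6.78 in nTKO cells on its brightest probe set (1420919_at), a log2 difference of 0.07 (SE 0.10). Its other probe sets differed by -0.03 and 0.14, and all 3 overlapped between the groups. Dusp1, which is induced by glucocorticoids but also within minutes by many stresses, was at 8.75, 8.35 and 8.89 in nDKO cells and at 8.95 and 8.33 in nTKO cells. The nTKO mice thus held both the highest and the lowest value, and the log2 difference was -0.02 (SE 0.27). Without nTKO 1 it was -0.33 and without nTKO 2 it was 0.29.

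Taken over the 29 probe sets, 18 were lower and 11 higher in nTKO cells, with a median of -0.02, against a median of 0.02 over all probe sets. The groups did not overlap for 6 member probe sets on the lower side (1 of Sgk1, 3 of Tsc22d3, 1 of Per1 and 1 of Klf9), where 5.17% of all probe sets did so. On the higher side there were 2, both of Nr3c1, beside 7.02% of all. Of these 2, 1431378_at (4.03 to 4.36) lay below the median of every array. The genotype difference chose the genes, and probe sets of a gene share their transcript, so nothing is read from these shares. With 1 probe set a gene, 6 of the 9 were lower and 3 higher (median -0.20, and -0.33 to 0.05 with 1 mouse left out, the last value without nDKO 3). Of the 29, 8 lay below the median of every array.

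**Figure D3:**
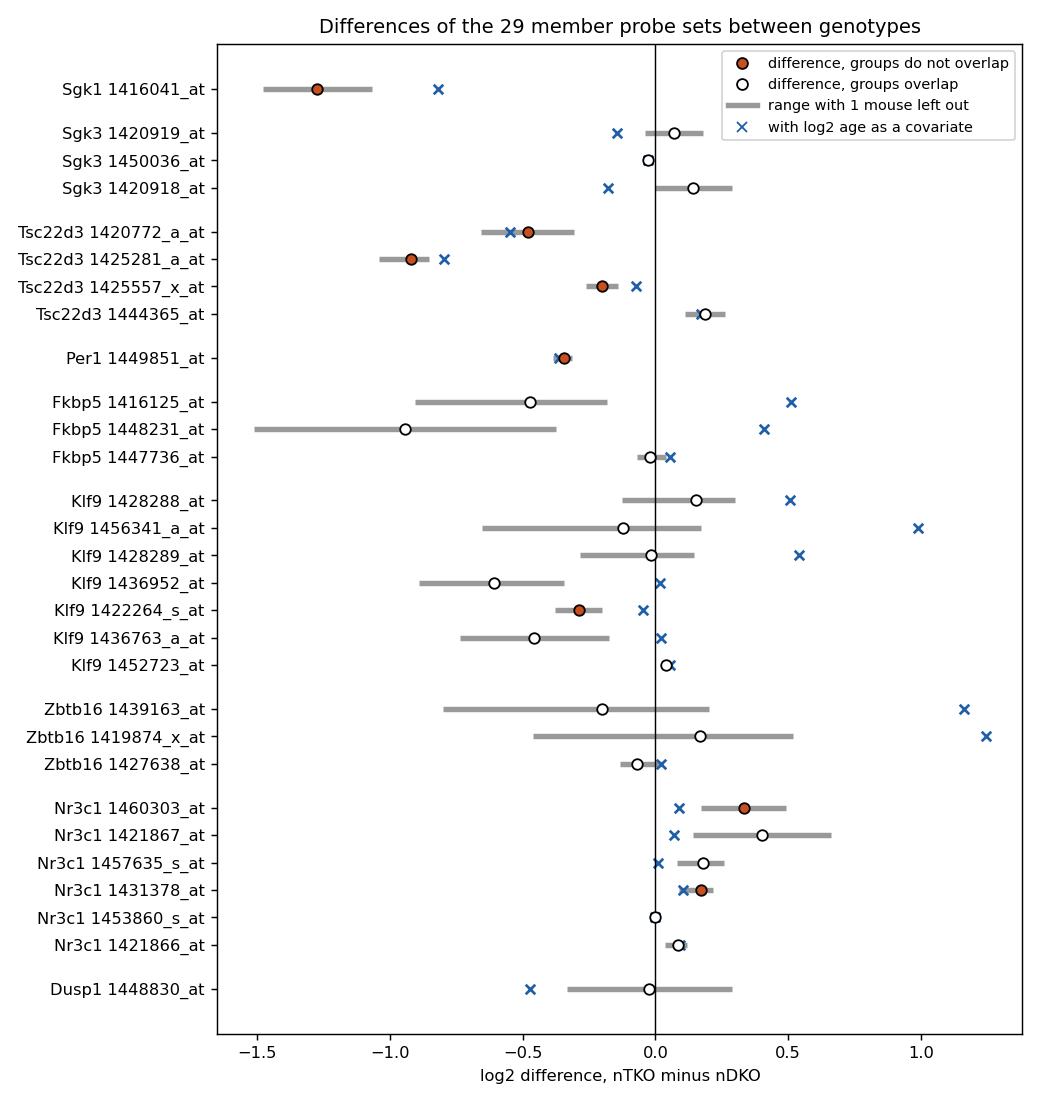
Log2 difference, nTKO minus nDKO (horizontal axis), of each member probe set (rows): circles are the differences over all 5 arrays, filled where the groups do not overlap, grey bars the range with 1 mouse left out, and crosses the difference adjusted for log2 age. The crosses of Fkbp5, Zbtb16 and the bright Klf9 probe sets lie on the other side of 0 or further to the right, while that of Per1 (-0.36) stays by its circle (-0.34).

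Other genes that glucocorticoids induce in many tissues lay on both sides of 0. All 22 genes of that list were measured, with 10 higher and 12 lower, a median of -0.05 and 0 called, beside a median of 0.03 over all genes. Groups did not overlap for 2 genes on the lower side and 2 on the higher, beside 4.71% and 8.13% of all genes. Lower were the metallothionein Mt2 (10.92, 11.00 and 10.82 against 10.17 and 10.81, log2 difference -0.42, and -0.10 without nTKO 1) and the lipase inhibitor Angptl4 (-0.11). Higher were Errfi1, a feedback inhibitor of EGF receptor signalling (9.31, 9.23 and 9.41 against 9.63 and 9.79, log2 difference 0.39), and the NF-kappaB inhibitor Nfkbia (0.18), whose 2 nTKO values of 12.09 lay just above nDKO 3 (12.05). The mTORC1 inhibitor Ddit4 (-0.20), the transcription factor Cebpd (0.43, from nTKO 1 at 10.27) and the metallothionein Mt1 (-0.15) overlapped between the groups.

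Of the receptor machinery (chaperones, coregulators and steroid-converting enzymes), 12 of 16 listed genes were analysed, 7 higher and 5 lower, with a median of 0.08 and 0 called. The coactivator Ncoa1 was higher in both nTKO mice (7.49, 7.73 and 7.89 against 8.07 and 8.04, log2 difference 0.35), as was the chaperone Hsp90aa1 (0.17), and the co-chaperone Stip1 was lower (-0.15). Fkbp4, the co-chaperone that competes with Fkbp5 for the receptor complex, was level (9.20 to 9.31 over all arrays, log2 difference -0.02). The mineralocorticoid receptor Nr3c2, which binds the same hormones, was at 6.06 in nDKO 1 and at 6.50 to 6.72 elsewhere. Hsd11b1, the enzyme that regenerates active glucocorticoid, was at 6.75 in nTKO 1 and at 5.72 to 5.77 on the other arrays, so its difference of 0.51 came from 1 mouse. Hsd11b2 overlapped between the groups (-0.56, SE 0.62).

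Kinases and substrates around SGK had small differences of both signs. Of 18 listed genes 17 were analysed, 6 higher and 10 lower, with a median of -0.01 and 0 called. Scnn1a, a subunit of the epithelial sodium channel, was the 1 gene whose groups did not overlap, beside 4.71% (lower) and 8.13% (higher) of all genes. It was at 8.30, 8.64 and 8.32 against 8.24 and 8.22, a log2 difference of -0.19, and of -0.08 without nDKO 2. The ubiquitin ligase Nedd4l, which SGK1 phosphorylates, was at 0.15 (SE 0.19), and the SGK1 substrate Ndrg1 at 0.19 (SE 0.28). The paralogue Sgk2 was below the array medians throughout (3.37 to 3.97).

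Clock genes were examined because Per1 belongs to them. Of 18 listed genes 17 were analysed, and 12 were higher and 5 lower, with a median of 0.01 and 0 called. The clock-output factor Dbp was the farthest, reading 8.69, 8.77 and 8.12 in the nDKO mice but 8.04 and 6.95 in the nTKO mice (log2 difference -1.03, SE 0.41). Most of that came from nTKO 2, without which it was -0.49. Tef, a factor of the same PAR-bZIP family, was lower too (9.71, 9.73 and 9.66 against 9.62 and 9.02, log2 difference -0.38, and -0.08 without nTKO 2). The other period genes overlapped between the groups, Per2 at -0.04 (SE 0.39) and Per3 at -0.31 (SE 0.16), as did the repressor Nr1d1 (0.16).

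Dissociation of a tissue can induce immediate-early genes, and Dusp1, Per1 and Sgk1 can respond in that way. All 23 genes of the immediate-early and heat-shock list were measured, 14 higher and 9 lower, with a median of 0.05 and 0 called. Fos was at 9.21, 9.19 and 9.08 in nDKO cells and at 9.87 and 8.93 in nTKO cells, spanning the controls as Dusp1 did. Egr1 (0.39, SE 0.26) and Jun (-0.28, SE 0.15) overlapped as well. The groups did not overlap for 1 gene on the lower side, Junb (-0.29), and for 2 on the higher, Btg2 (0.39, and 0.18 without nTKO 1) and Atf3 (0.60), beside 4.71% and 8.13% of all genes.

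The wider Dusp family held larger differences than Dusp1. Of 11 other members 7 were higher and 4 lower, with a median of 0.11 and 0 called. The ERK phosphatase Dusp6 was at 9.11, 8.95 and 8.85 against 10.32 and 9.39 (log2 difference 0.89, SE 0.31), and Dusp4 at 7.57, 7.63 and 7.54 against 8.42 and 7.96 (0.61, SE 0.16), each above all nDKO values. Dusp16 (0.35) was also higher, and Dusp7 (-0.63) and Dusp14 (-0.18) lower, without overlap, so that 3 were higher and 2 lower in this way, beside 8.13% and 4.71% of all genes. Without nTKO 1 the difference of Dusp6 was 0.42, that of Dusp4 0.38 and that of Dusp7 -0.22. Without nTKO 2 that of Dusp16 was 0.23.

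Androgen-responsive prostate genes were set beside the members because of the shared element. Of 13 listed genes 11 were analysed, 8 higher and 3 lower. None was called, and the median of 0.23 ranged from 0.01 (without nTKO 2) to 0.54 over the fits that lacked 1 mouse. Adjusted for log2 age it was 0.93, and between the mice closest in age 0.96. Pbsn, the probasin gene itself, was at 3.91, 3.33 and 5.43 in nDKO cells and at 3.81 and 8.15 in nTKO cells. It was thus far highest in nTKO 2. Msmb, a secreted prostate protein, was likewise high in nTKO 2 alone (5.36, against 3.48 to 3.64). The protease gene Tmprss2 was at 11.27 and 11.14 in nDKO 1 and nTKO 1 and at 11.67 to 12.24 on the other arrays. Hoxb13 (8.86 and 9.37 against 9.98 to 10.29) and Homer2 (7.80 and 7.90 against 8.17 to 8.76) were also lowest in nDKO 1 and nTKO 1. Spdef, Steap4 and Ndrg1 were lowest in nDKO 1 alone. Abcc4, a transporter gene (11.19, 10.30 and 10.34 against 10.62 and 9.94), and the acid phosphatase gene Acpp (8.95, 8.35 and 8.37 against 8.52 and 8.31) went the other way, highest in nDKO 1 and lowest in nTKO 2. No pattern over the arrays was thus shared by the whole list.

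**Figure D4:**
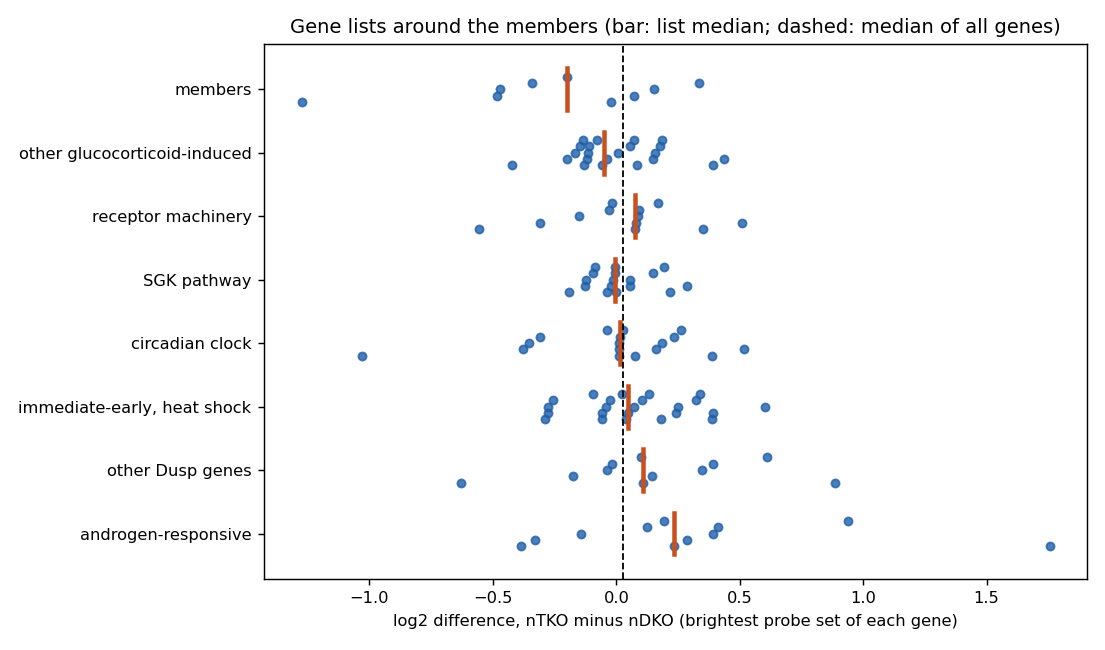
Log2 difference, nTKO minus nDKO (horizontal axis), of each gene (points, brightest probe set) in the members and in 7 lists around them (rows); the bar is the list median and the dashed line the median of all genes. The member median (-0.20) rests on 9 genes of which Sgk1 (-1.28) is farthest out, and the other list medians lie between -0.05 and 0.23.

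Markers of other cells were read on the same arrays. Neutrophil markers (9 of 11 analysed, 9 higher) had medians of 5.99 to 6.33 over the nDKO mice, of 7.06 in nTKO 1 and of 5.73 in nTKO 2. Macrophage markers (11 of 11, 4 higher and 7 lower) had medians of 7.64 to 8.89 in nDKO and of 8.15 and 7.36 in nTKO cells. The neutrophil median thus lay above all nDKO arrays in nTKO 1 and below them in nTKO 2. Both kinds of cell are known to express glucocorticoid-induced genes such as Tsc22d3 and Fkbp5. The complement gene C1qa was lower in both nTKO mice (8.20, 7.64 and 9.09 against 7.46 and 7.27), but its partners C1qb (-0.18) and C1qc (-0.08) overlapped between the groups, and Ms4a7 (0.47) and Csf1r (0.07) had the other sign. T cell and natural killer markers (9 of 11) had medians of 4.11 to 4.90 and fibroblast and endothelial markers (12 of 12) of 3.90 to 4.03, below the array medians of 4.94 to 4.98. The matrix gene Dcn, a fibroblast marker, was an exception in that list, at 7.87, 9.39 and 9.03 in the nDKO mice and at 6.41 and 9.52 in the nTKO mice. It was lowest in nDKO 1 and nTKO 1, the arrays on which Fkbp5 and Zbtb16 were lowest. Every listed luminal marker except Cd24a was lowest on those arrays as well. The luminal list median was 12.59 and 12.77 there, against 12.91, 12.85 and 13.04 in nDKO 2, nDKO 3 and nTKO 2. Among the dim markers the granule gene Nkg7 (3.63 to 3.90 against 4.74 and 3.95) and the collagen gene Col3a1 (2.66 to 2.92 against 3.44 and 3.09) were higher without overlap. The basal keratin Krt15 was lower (13.68, 13.41 and 13.52 against 13.29 and 12.77), in a basal list with 2 genes higher and 7 lower of 9, and the luminal list had 4 higher and 5 lower of 9. The part of other cells in the member values was not tested.

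The genes most like Sgk1 and Tsc22d3 in profile were sought among 8927 genes whose mean signal reached the median of all genes. Each gene was taken on its brightest probe set, and predicted genes were left out. Likeness was the root mean square difference between profiles, each taken as signal minus its mean over the 5 arrays, so that 0 is an identical profile. Nearest to Sgk1 were Rps4l and AA986860 (both 0.19), Rsrp1 (0.20), Trabd and Plcd3 (both 0.22), against a median of 0.68 over all genes compared. Rps4l, for example, was at 8.07, 8.81 and 8.93 in nDKO cells and at 7.15 and 7.83 in nTKO cells, with nTKO 1 lowest as in Sgk1. Nearest to Tsc22d3 were the vitamin D receptor Vdr (0.07), the glycolytic regulator Pfkfb4 (0.08), the receptor kinase Kit and the hypoxia factor Epas1 (both 0.09) and Barx2 (0.11), against a median of 0.32. Kit was at 8.26, 8.60 and 8.39 in nDKO cells and at 7.95 and 7.80 in nTKO cells.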

How the data were processed

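Tumour cell RNA of 5 mice was measured on 1 Affymetrix array each. The table the authors deposited gives 1 log2 signal for each probe set and array. Their software, per the submitters' processing notes, was the Transcriptome Analysis Console with RMA. Which release was used is not given in the sources used here. This method brings all arrays to 1 distribution, which hides any change common to most genes. Of the probe sets, 30.8% had exactly the same value, at the 2 decimals deposited, on 3 or more arrays. No scanner files were used here.

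Of 45037 probe sets, 34945 had 1 gene symbol in the platform annotation, 932 several and 9160 none. All were fitted with limma 3.58.1 in R 4.3.3 (lmFit, eBayes with an intensity trend, no covariate, two-sided, Benjamini-Hochberg over all probe sets, threshold 0.05). Differences carry the moderated SE of that fit. The procedure was tested on simulated arrays with 200 changed probe sets. Gene lists used the brightest single-symbol probe set of each gene. An exact test of 3 against 2 mice cannot go below p = 0.1. The labels give separate mice, and spread between mice is what the errors measure.

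Members, lists, the rule for named genes and alternatives were chosen with earlier results of these data known. Named were all members, genes fixed by name, from each list up to 3 further genes whose groups do not overlap (by size), and the 5 nearest profiles to Sgk1 and Tsc22d3. Krt5, Tmprss2, Pbsn, Abcc4, Acpp, Hoxb13, Homer2, Spdef, Steap4, Dcn, Cd24a, C1qb, C1qc, Ms4a7, Csf1r, Dusp14 and Dusp16 were named after their values were seen. So were Krt14, Krt17, Trp63, Itga6, Itgb4, Pdpn and Dst. The alternatives were quantile normalization, median centring, a filter at the median level of 4.97, 1 probe set per gene, eBayes without trend, robust eBayes, array weights, log2 age, the replicate block, leaving out each mouse, leaving out nDKO 1 and nTKO 1, and the pair of like age. Some items are not reported here.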

Additional observations from a re-analysis of the deposited data

How the results depend on the processing

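No probe set was called by limma in any of the 15 alternative fits (0 in each). Probe sets with a 2-fold difference and an unadjusted p under 0.05 numbered 51. They were 24 with 1 probe set per gene, 587 with log2 age as a covariate, 97 without nDKO 1 and nTKO 1, and 42 to 285 with 1 mouse left out (100 without nTKO 1 and 285 without nTKO 2). With the replicate block they were 90. The labels share replicate numbers but do not say that these pair mice, and with 2 shared numbers the deviations (correlations of 0.377 and 0.311) cannot show it. Member probe sets whose groups do not overlap numbered 8, and 4 with 1 probe set per gene, 21 without nDKO 1 and nTKO 1, and 8 to 17 with 1 mouse left out (17 without nDKO 1 and 17 without nTKO 2). Fewer mice make overlap rarer by construction. With log2 age as a covariate, 17 of the 29 member differences moved by more than the spread between mice, between the mice closest in age 20 did, and with median centring 0 did. Dim probe sets limit what can be seen for 4 of the 6 probe sets of Nr3c1.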
